A study of Mus musculus with 6 samples.

Results

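Genes of mitosis and chromosome segregation were read in MC3T3-E1 osteoblasts (OBs) after 5 days with ascorbic acid (AA) and in cultures kept without it. The list holds 45 genes, given by name with earlier results of these data known. A total of 44 were measured, of 18193 genes that the array reads through at least 1 probe set named for that gene alone, and Ccnb1 (cyclin B1) has no such probe set here. MC3T3-E1 is a line of pre-osteoblasts from mouse calvaria, used as subclone 4, so all cultures come from 1 clonal line. The AA cultures received 50 µg of AA, per ml according to the methods, and the control cultures received none, both in α-MEM with 10% serum renewed every second day. Each group had 3 cultures, and each was read on a separate Affymetrix array, the Mouse Genome 430 2.0. The sources speak both of triplicate wells and of triplicate experiments, so p-values here cover only the spread between these samples, which may be technical.

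Mitosis divides duplicated chromosomes between daughter cells. The kinase CDK1 with its cyclin partners drives entry, kinetochores tie chromosomes to spindle microtubules, and the spindle checkpoint holds back the anaphase-promoting complex (APC/C) until all are attached. The APC/C then marks securin and cyclins for destruction, separase opens the cohesin rings, and the contractile ring completes the division. Most of these genes are transcribed late in the cell cycle, in G2 and M phase, so that their RNA is used as a measure of dividing cells. In cultured OBs, proliferation is known to precede matrix deposition and to decline as the cells mature. In RNA from whole cultures, fewer cells in G2 and M phase and less RNA per such cell cannot be told apart.

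The late cell cycle genes share promoter elements. The cell cycle genes homology region (CHR, letters TTTGAA) is bound by the MuvB core of the DREAM and B-MYB complexes, and the CCAAT box (letters CCAAT) by NF-Y. The promoters of 4 members that fell in AA cultures and of 3 that did not pass the test are printed here because both kinds carry these elements. Sequences are from RefSeq (GRCm38.p6), 5′ to 3′ on the strand of the gene, with 200 bases before the annotated start and the 30 bases from it on. Capitals mark each match to TTTGAA or CCAAT on either strand, so TTCAAA and ATTGG are capitals too.
Cenpf, chr1:189688057-189688286, minus strand: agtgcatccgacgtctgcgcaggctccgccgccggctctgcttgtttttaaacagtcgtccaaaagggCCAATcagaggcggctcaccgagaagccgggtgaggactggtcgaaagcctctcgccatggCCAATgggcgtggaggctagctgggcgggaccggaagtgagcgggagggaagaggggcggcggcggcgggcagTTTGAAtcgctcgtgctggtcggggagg
Ube2c, chr2:164769729-164769958, plus strand: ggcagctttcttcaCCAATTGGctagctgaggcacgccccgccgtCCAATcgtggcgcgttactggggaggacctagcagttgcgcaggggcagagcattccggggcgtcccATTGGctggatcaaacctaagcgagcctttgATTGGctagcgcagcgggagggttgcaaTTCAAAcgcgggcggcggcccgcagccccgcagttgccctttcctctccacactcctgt
Mki67, chr7:135716350-135716579, minus strand: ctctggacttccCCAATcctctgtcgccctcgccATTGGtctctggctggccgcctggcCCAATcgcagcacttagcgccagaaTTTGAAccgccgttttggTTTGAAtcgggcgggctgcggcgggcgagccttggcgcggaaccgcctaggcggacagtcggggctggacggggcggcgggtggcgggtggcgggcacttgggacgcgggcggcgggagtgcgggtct
Cenpe, chr3:135212363-135212592, plus strand: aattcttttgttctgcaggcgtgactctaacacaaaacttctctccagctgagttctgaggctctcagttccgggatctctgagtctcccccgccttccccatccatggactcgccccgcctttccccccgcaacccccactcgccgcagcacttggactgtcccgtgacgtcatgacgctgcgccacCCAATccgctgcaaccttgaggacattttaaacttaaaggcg
Cdk1, chr10:69352883-69353112, minus strand: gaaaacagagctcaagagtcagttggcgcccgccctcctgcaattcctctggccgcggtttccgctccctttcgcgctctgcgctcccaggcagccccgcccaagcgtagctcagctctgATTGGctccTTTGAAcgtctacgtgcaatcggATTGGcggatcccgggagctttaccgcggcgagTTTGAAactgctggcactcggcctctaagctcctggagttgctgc
Ccnb2, chr9:70421525-70421754, minus strand: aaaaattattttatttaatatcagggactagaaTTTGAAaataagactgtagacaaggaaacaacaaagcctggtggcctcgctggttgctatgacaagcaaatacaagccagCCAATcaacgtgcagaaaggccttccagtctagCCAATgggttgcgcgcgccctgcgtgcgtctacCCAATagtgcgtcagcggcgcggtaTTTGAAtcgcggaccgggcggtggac
Cdc20, chr4:118437314-118437543, minus strand: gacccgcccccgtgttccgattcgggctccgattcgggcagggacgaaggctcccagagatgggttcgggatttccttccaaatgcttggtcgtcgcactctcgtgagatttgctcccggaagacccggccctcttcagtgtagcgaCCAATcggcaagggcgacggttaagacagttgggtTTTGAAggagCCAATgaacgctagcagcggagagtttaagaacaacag
The first 4 belong to members that fell, and the last 3 to members that did not pass. The 2 kinds of match overlapped at 0 bases in each of the 7 stretches.

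The RefSeq table used here holds a promoter window, 250 bases before the start and 50 after, for 36 of the 44 measured members. TTTGAA on either strand was present for 27 of these 36 (75%), against 15.7% of the 14452 genes on the array that have a window and 17.9% of all 32851 windows. Within 50 bases of the start it was present for 24 members (66.7%), against 4.09% of the genes on the array. A CCAAT box was present for 27 members (75%), against 42.0% of the genes on the array and 37.4% of all windows. Both elements were found together for 24 members (66.7%) and for 6.21% of the genes on the array. Among the 5 members with a window that fell, 4 held TTTGAA and 5 held CCAAT. Among the 31 that did not pass, 23 held TTTGAA and 22 held CCAAT, so the elements were common to both kinds. Birc5, Pttg1, Mad2l1, Nuf2, Nusap1 and Ncaph, all among those that did not pass, held neither. Cenpe is the member that fell without TTTGAA in its window, and its 1 CCAAT box lies at -12 to -8. In Cenpf TTTGAA lies at 3 to 8, just past the start, and in Ube2c at -29 to -24 on the opposite strand. In Cdk1 it lies at -71 to -66 and at -15 to -10. These matches are a description of letters in a window and not of bound sites.

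**Figure D1:**
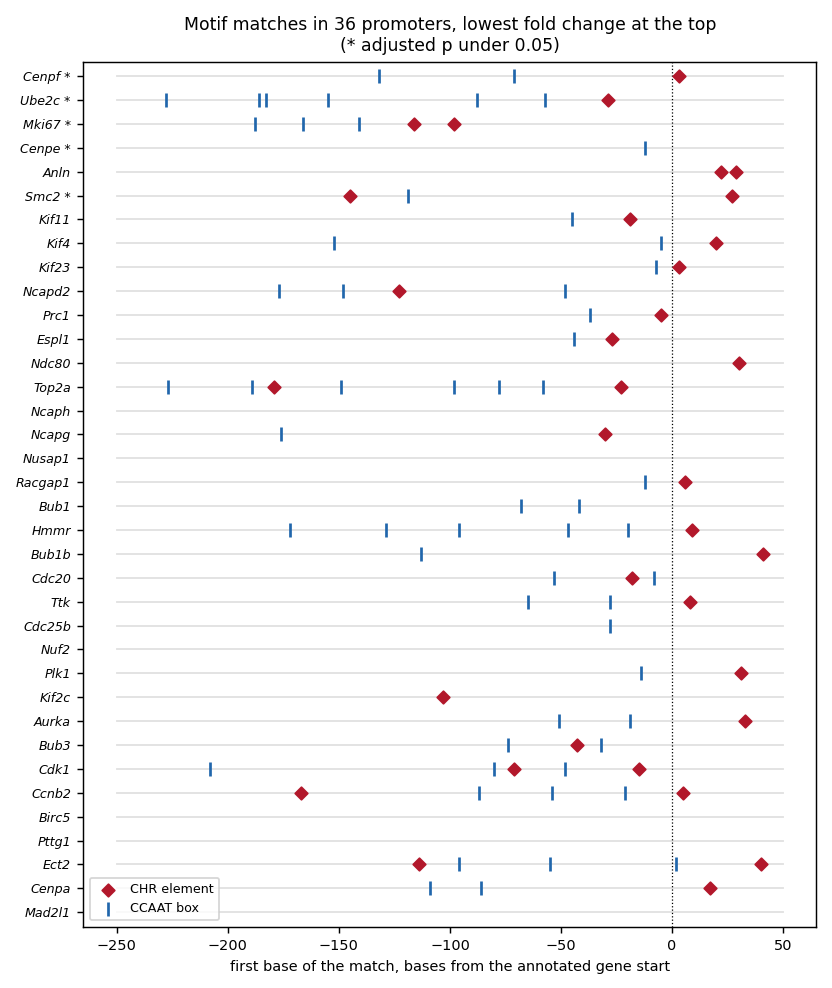
Position of each CHR match (red diamonds) and CCAAT box (blue bars) in the promoter windows of 36 members, in bases from the annotated gene start, with genes ordered by log2 fold change and an asterisk at those with an adjusted p under 0.05. CHR matches lie near the start for most members. Birc5, Pttg1 and Mad2l1 at the bottom of the order have no match of either kind, nor do Ncaph, Nusap1 and Nuf2 further up.

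Levels are the deposited signals, which are linear and have no detection call, and each gene is represented by the probe set whose mean signal over the 6 arrays is the highest. Changes are log2 fold changes (log2FC), AA over control, with their standard errors (SE). They come from limma with a block for the replicate number, fitted after quantile normalization between arrays, and so need not equal the ratio of the signals beside them. A gene passed where its p, adjusted over all 45037 probe sets, was under 0.05. The median signal per array ran from 16.2 to 16.9 in AA cultures and from 14.9 to 17.7 in control cultures. The 3′/5′ signal ratio of the Gapdh controls, which reflects RNA integrity, ran from 0.791 to 0.799 in AA cultures and from 0.807 to 0.920 in control cultures. Control replicate 3 was the highest in this ratio and also in that of the actin controls, at 1.79, against 1.35 to 1.45 on the other 5 arrays. The members had mean signals of 127 to 1870.0 (median 467), against a median of 16 over all probe sets.

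Of the 44 measured mitosis genes, 6 were lower in AA cultures and 0 were higher by limma (adjusted p under 0.05), while 38 did not pass. The 6 were the kinetochore genes Cenpf and Cenpe, the APC/C partner Ube2c, the spindle gene Tpx2, the condensin subunit gene Smc2 and the proliferation marker Mki67. Their falls were modest, 23.3% to 38.2%, and only Cenpf changed by 1.5-fold or more. The 6 are 13.6% of the measured members, against 3.85% of all 18193 genes called lower and 4.07% called higher. Of the 7279 genes at least as bright as the dimmest member, 7.93% were lower and 7.98% higher, and of all 45037 probe sets 2.5% were lower and 2.71% higher. At an unadjusted p under 0.05, 20 members were lower and 0 higher, while of all 45037 probe sets 4236 were lower and 3864 higher. The log2FC was below 0 for 39 members (88.6%), against 52.4% of all genes and 53.6% of the genes at least as bright. The median over the members was -0.25, against -0.02 over all genes. Without the replicate block 2 members passed, Cenpf and Mki67, and with control replicate 3 left out as well 1 passed, Cenpf. With the block but without the variance trend of limma, 0 passed (5 at an unadjusted p under 0.05).

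**Figure D2:**
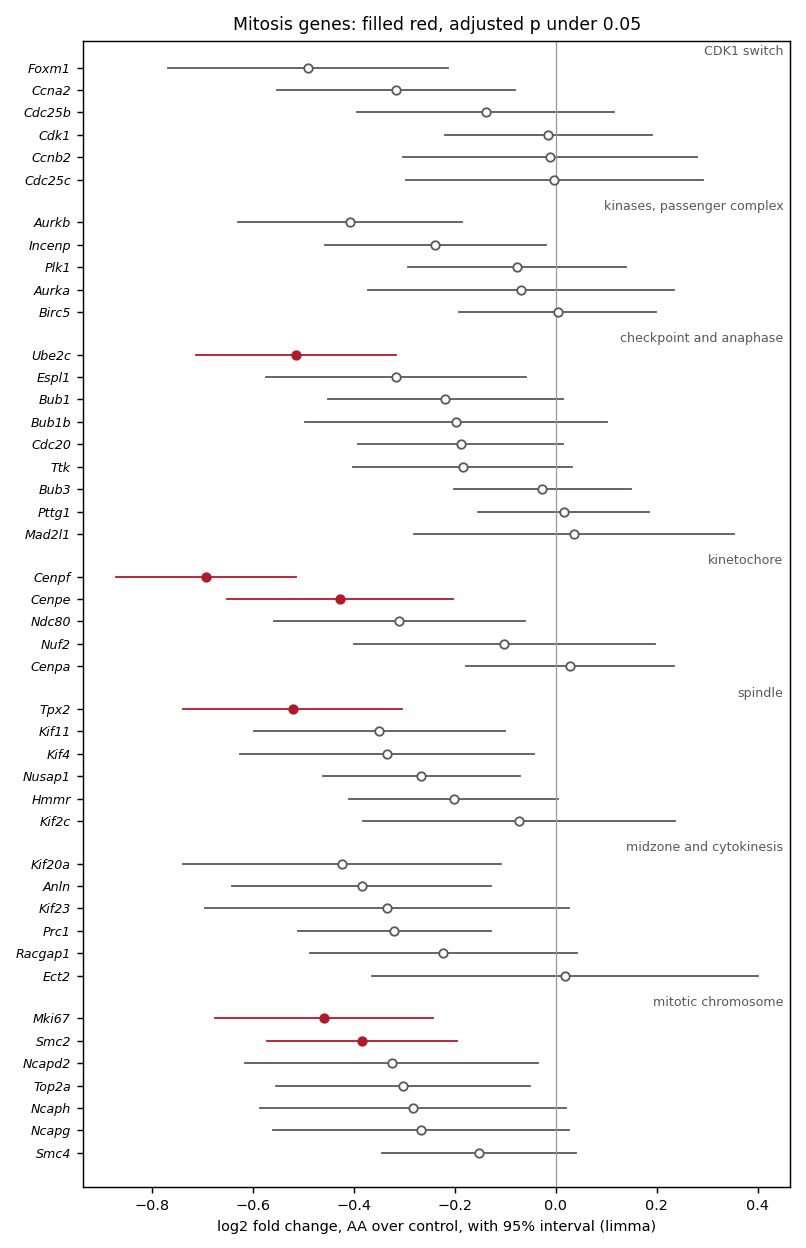
Log2 fold change (log2FC), AA over control, of the 44 measured members with its 95% interval from limma, grouped by role. Filled red points are the 6 members with an adjusted p under 0.05. Most points lie left of 0, and those of Cdk1, Ccnb2, Cdc25c, Birc5, Pttg1 and Cenpa lie close to it.

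Among the kinetochore genes, 2 of 5 fell. Cenpf, a large coiled-coil protein of the outer kinetochore that builds up in G2, had the lowest adjusted p and the largest change of all members. Its signals were 440.4, 479 and 523 in AA cultures, against 744, 757 and 865 in control cultures. The groups stood well apart, and the fall was alike in all 3 pairs of same-numbered arrays (log2FC values -0.72, -0.64 and -0.72). The log2FC was -0.69 (SE 0.08, adjusted p = 0.00245 from limma, and 0.00456 without the replicate block). Cenpe encodes the kinesin that carries chromosomes to the spindle equator. It had signals of 159, 175 and 219 in AA cultures and 225, 245 and 287 in control cultures, so the highest AA array came close to the lowest control array. Its log2FC was -0.43 (SE 0.10, adjusted p = 0.0456, and 0.128 without the block). Another Cenpe probe set, with a mean signal of 96.5, overlapped between the groups and did not pass (log2FC -0.21, adjusted p = 0.670). Cenpa encodes the histone H3 variant that marks centromeres. Its signals of 874, 1143 and 1208 in AA cultures spread around those of 995, 1086 and 1042 in control cultures, with a log2FC of 0.03 (SE 0.09, adjusted p = 0.921). Ndc80 and Nuf2, subunits of the complex that grips microtubules, had log2FC values of -0.31 and -0.10 (adjusted p = 0.170 and 0.763). The Nuf2 control arrays alone ran from 310.3 to 609.

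In the checkpoint and anaphase group 1 of 9 fell, and the checkpoint kinases and sensors did not pass. Ube2c encodes the ubiquitin-conjugating enzyme that works with the APC/C. Its signals were 1049.8, 1508 and 1619 in AA cultures, against 1715, 1966 and 2058 in control cultures, with no overlap. The log2FC was -0.52 (SE 0.09, adjusted p = 0.0133, and 0.0969 without the block). Cdc20 encodes the APC/C activator that the checkpoint restrains. It gave 1352, 1847 and 1919 in AA cultures and 1758, 1936 and 1933 in control cultures, so that AA replicate 1 alone stood clearly below (log2FC -0.19, SE 0.09, adjusted p = 0.316). The checkpoint genes Bub1, Bub1b and Ttk had log2FC values of -0.22, -0.20 and -0.19 (adjusted p = 0.309, 0.496 and 0.361). Bub3 and Mad2l1, which encode the other checkpoint proteins of the list, had log2FC values of -0.03 and 0.04, with 95% intervals of -0.20 to 0.15 and -0.28 to 0.35. Securin and separase, the pair that times sister separation, are read by Pttg1 and Espl1. Pttg1 had a log2FC of 0.02 (adjusted p = 0.951) and Espl1 one of -0.32 (adjusted p = 0.178).

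Of the 6 measured genes of the CDK1 switch, 0 passed in either direction by the brightest probe set. Cdk1 itself had signals of 1498, 1905 and 1927 in AA cultures, against 1730.1, 1772 and 1722 in control cultures. The AA arrays lay on both sides of the narrow control range, and the log2FC was -0.02 (SE 0.09, 95% interval -0.22 to 0.19, adjusted p = 0.963). Ccnb2 (cyclin B2) showed the same arrangement, with 328, 451 and 487 in AA cultures and 446, 422 and 429 in control cultures (log2FC -0.01, adjusted p = 0.980). Ccna2 (cyclin A2), which acts from S phase on, had 693, 1030.5 and 1168 in AA cultures and 1076, 1116 and 1342 in control cultures. Its log2FC was -0.32 (SE 0.10, adjusted p = 0.142). The CDK1-activating phosphatase genes Cdc25b and Cdc25c had log2FC values of -0.14 and -0.00 (adjusted p = 0.590 and 0.995). Foxm1, the transcription factor that activates G2 and M phase genes, came close to the threshold. It gave 91.5, 101 and 122 in AA cultures against 141, 152 and 154 in control cultures, with no overlap (log2FC -0.49, SE 0.12, adjusted p = 0.0589). It passed on the signals as deposited (adjusted p = 0.0449).

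Of the 5 mitotic kinase and chromosomal passenger genes, 0 passed. Aurkb, the kinase of the passenger complex that corrects faulty attachments, was the nearest to the threshold. Its signals were 214, 293 and 338 in AA cultures, against 329, 392 and 414 in control cultures, and the highest AA array passed the lowest control array. The log2FC was -0.41 (SE 0.10, adjusted p = 0.0520, and 0.217 without the block). It passed on the signals as deposited (adjusted p = 0.0405). Another Aurkb probe set, with a mean signal of 148, was at -0.11 and did not pass (adjusted p = 0.819). Incenp, the scaffold of the passenger complex, had 1439, 1874 and 1939 in AA cultures and 1991, 1995 and 1982 in control cultures. Here the groups did not overlap, but AA replicates 2 and 3 lay close under the controls (log2FC -0.24, adjusted p = 0.233). Birc5 (survivin), the small passenger subunit, had a log2FC of 0.00 (SE 0.09, adjusted p = 0.993). Plk1 and Aurka, kinases of mitotic entry and of the spindle poles, had log2FC values of -0.08 and -0.07 (adjusted p = 0.747 and 0.855).

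Among 6 spindle genes, 1 fell and all 6 had a log2FC below 0 by the brightest probe set. Tpx2, the spindle assembly factor that activates Aurora A, had signals of 292, 388 and 449 in AA cultures, against 485, 506 and 658 in control cultures. The groups did not overlap, and the log2FC was -0.52 (SE 0.09, adjusted p = 0.0185, and 0.121 without the block). Another Tpx2 probe set, with a mean signal of 305, overlapped between the groups and did not pass (log2FC -0.26, adjusted p = 0.430). Hmmr, a microtubule-binding spindle protein, had 676, 769 and 916 in AA cultures and 909, 845 and 962 in control cultures. Its AA replicate 3 lay within the control range (log2FC -0.20, SE 0.09, adjusted p = 0.287). The bipolar spindle motor Kif11, the chromokinesin Kif4 and the microtubule bundler Nusap1 had log2FC values of -0.35, -0.34 and -0.27 (adjusted p = 0.124, 0.209 and 0.134). Kif2c, a microtubule depolymerase, had one of -0.07 (adjusted p = 0.850).

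The 6 genes of the spindle midzone and cytokinesis had a median log2FC of -0.33, and 0 passed. In 3 of them, Prc1, Anln and Kif20a, each AA array was below each control array. Anln (anillin), a scaffold of the contractile ring, had signals of 779, 950.2 and 1137 in AA cultures, against 1172, 1358 and 1172 in control cultures (log2FC -0.39, SE 0.11, adjusted p = 0.102). Prc1, which bundles midzone microtubules, had 452, 546 and 576 in AA cultures and 631, 660.5 and 699.7 in control cultures (log2FC -0.32, SE 0.08, adjusted p = 0.0712). The midzone motors Kif20a and Kif23 had log2FC values of -0.42 and -0.33 (adjusted p = 0.141 and 0.318). Racgap1 and Ect2 encode the partner proteins that switch on RhoA at the cell equator. They had log2FC values of -0.22 and 0.02, and the control arrays of Ect2 alone ran from 368 to 616.

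Of the 7 genes of the mitotic chromosome, 2 fell and all 7 had a log2FC below 0 by the brightest probe set. Mki67, which encodes the Ki-67 protein that coats mitotic chromosomes, had signals of 928, 1121 and 1249 in AA cultures, against 1444, 1544 and 1448 in control cultures. The AA arrays lay below the narrow control range (log2FC -0.46, SE 0.09, adjusted p = 0.0305, and 0.0440 without the block). Smc2, an ATPase shared by both condensin complexes, had 1060.2, 1302 and 1518 in AA cultures and 1541, 1618 and 1775 in control cultures. The highest AA array nearly met the lowest control array (log2FC -0.38, SE 0.08, adjusted p = 0.0358, and 0.124 without the block). On the signals as deposited Smc2 did not pass (adjusted p = 0.0639), and 2 of its other probe sets, with mean signals of 207 and 136, were at -0.04 and -0.03 (adjusted p = 0.944 and 0.970). Its partner Smc4 had 1333, 1602 and 1650.0 in AA cultures and 1646, 1687 and 1639.9 in control cultures, with overlap (log2FC -0.15, adjusted p = 0.404). The condensin I subunit genes Ncapd2, Ncapg and Ncaph had log2FC values of -0.33, -0.27 and -0.28 (adjusted p = 0.221, 0.326 and 0.313). Top2a, the topoisomerase that untangles sister chromatids, had one of -0.30 (adjusted p = 0.186).

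The members were not alike in the size of their change. Of the 44, 12 had a log2FC within 0.1 of 0 (Cdk1, Ccnb2, Cdc25c, Plk1, Aurka, Birc5, Bub3, Mad2l1, Pttg1, Cenpa, Kif2c and Ect2), with 95% bounds that reached from -0.38 to 0.40. In 27 members the log2FC was below 0 in all 3 pairs of same-numbered arrays, in 8 it was so in 2 pairs and in 9 in 1 pair. Every AA array was below every control array for 13 members (29.5%), against 15.3% of all genes and 25.0% of the genes at least as bright as the dimmest member. For 0 members was every AA array above every control array.

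The replicates of the AA group differed more than those of the control group. AA replicate 1 had the lowest signal of the AA arrays in 44 of 44 members and the lowest of the 6 arrays in 40. Relative to the mean of the control arrays, the median over the members was -0.56 on the log2 scale for AA replicate 1, -0.19 for AA replicate 2 and -0.02 for AA replicate 3. The control arrays had medians of -0.08, 0.05 and 0.05. AA replicate 3 was the highest AA array for 41 members. Without the arrays of replicate 1, 2 members passed, Ube2c and Cenpf, and the median log2FC of the members was -0.14. Without replicate 2, Cenpf and Tpx2 passed. Without replicate 3, 10 passed: Cenpf, Ube2c, Mki67, Tpx2, Smc2, Aurkb, Kif20a, Anln, Ncaph and Top2a. Cenpf is the member that passed in all 3 cases.

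**Figure D3:**
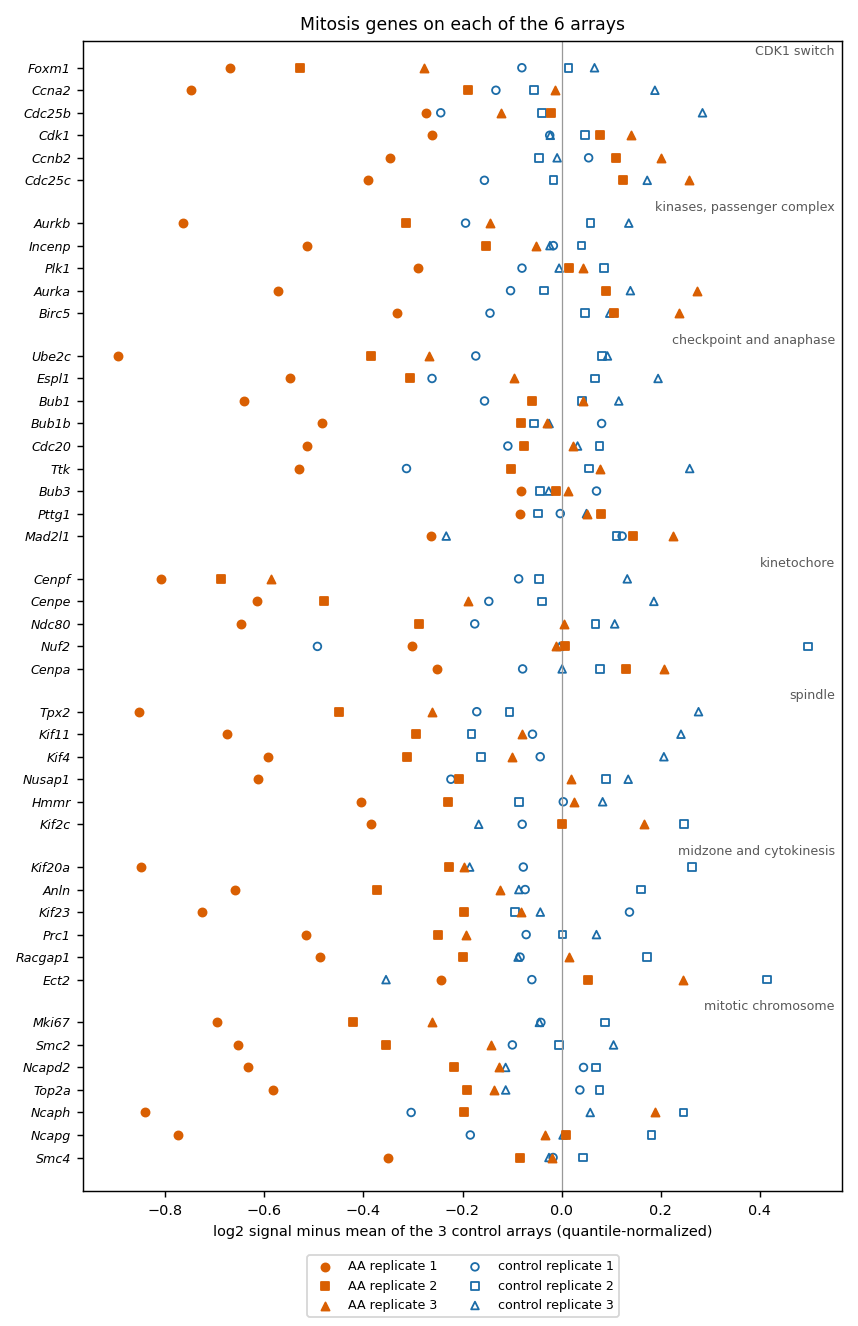
Log2 signal of each member on each array, minus the mean of the 3 control arrays, after quantile normalization. Filled orange symbols are AA cultures and open blue symbols control cultures, with the replicate given by the shape. AA replicate 1 (filled circles) lies left of the other AA arrays in all 44 rows.

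The same array stood out for other genes. Of the 694 other genes called lower in AA cultures, AA replicate 1 was the lowest AA array for 430 (62.0%), and of 740 genes called higher it was the highest for 531 (71.8%). Over all 18149 other genes it was the lowest AA array for 35.2%. The osteoblast markers that passed were higher in AA cultures. Alpl, alkaline phosphatase, had signals of 426, 287 and 304 in AA cultures, against 135, 109 and 116 in control cultures. Ibsp, bone sialoprotein, had 5583, 4719 and 4118 in AA cultures and 2285, 1341 and 1268 in control cultures. AA replicate 1 was thus the highest AA array for both. Over 8 measured osteoblast markers the median of AA replicate 1 was 1.28 above the control mean on the log2 scale. It was 0.44 and 0.31 for AA replicates 2 and 3. These medians include the dim genes Phex and Dmp1, with control signals of 12.5 to 20.6 and 5.14 to 8.26, so their size is uncertain. The median signal and Gapdh ratio of AA replicate 1, 16.4 and 0.791, were close to those of the other AA arrays, 16.2 to 16.9 and 0.799. The part of these values in the fall of the mitosis genes was not tested.

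**Figure D4:**
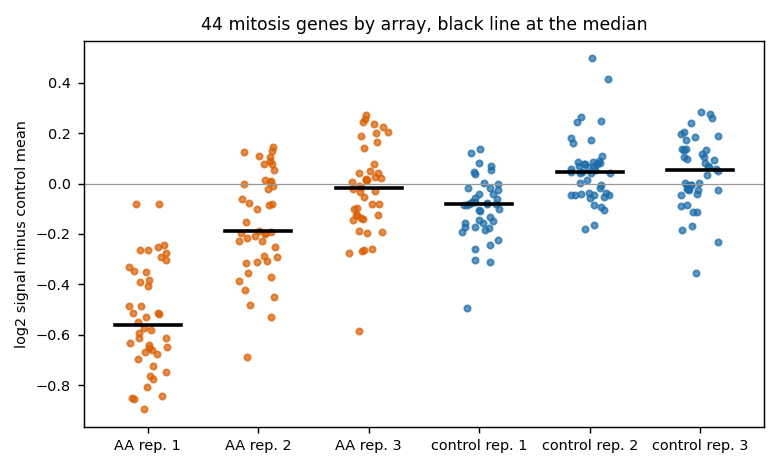
The 44 members on each array, 1 point per gene, as log2 signal minus the control mean, with the median as a black line. The medians are -0.56, -0.19 and -0.02 in AA cultures and -0.08, 0.05 and 0.05 in control cultures.

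The members were read by 102 probe sets, 14 genes by 1 and 30 by several. Of the 58 probe sets that were not the brightest of their gene, 1 was lower, 1 higher and 56 did not pass. The lower one was a second probe set of Foxm1, with signals of 60.0, 85.8 and 136 in AA cultures and 126, 135 and 189.8 in control cultures (log2FC -0.70, SE 0.14, adjusted p = 0.0306). Another Foxm1 probe set, with a mean signal of 91.6, was at -0.01 (SE 0.15, adjusted p = 0.993), and the last had signals of 0.378 to 4.20 in AA cultures and 0.340 to 3.29 in control cultures, too dim for a fold to be read. The higher one belonged to Kif11, with 76.5, 81.2 and 71.0 in AA cultures and 37.5, 51.2 and 21.4 in control cultures (log2FC 1.14, adjusted p = 0.0204). The 2 brighter Kif11 probe sets had -0.35 and -0.11 (adjusted p = 0.124 and 0.773), so the direction for Kif11 depends on the probe set. Smc4, Hmmr, Racgap1 and Pttg1 were among the genes that also had other probe sets above 0, none of which passed. Those of Smc4 were at 0.09 and 0.06 (mean signals 936 and 470). Those of Hmmr included 0.06 and 0.07 (182 and 156), and those of Racgap1 included 0.05 (332). For Pttg1, whose brightest probe set was at 0.02, another with a mean signal of 315 was at 0.23 (adjusted p = 0.289). Of the 58, 40 were dimmer than any probe set used for a gene, with a median log2FC of -0.00, and 21 of these 40 were below 0. The other 18 had a median of -0.10, with 12 below 0. When each gene was read by the mean of all its probe sets, Ube2c and Mki67 passed. Each of them has 1 probe set, so the averaging could not change its log2FC. On this reading the median over the members was -0.14, and 31 of 44 were below 0. Cenpf then did not pass (adjusted p = 0.463), its other probe sets having mean signals of 26.7 and 16.4.

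**Figure D5:**
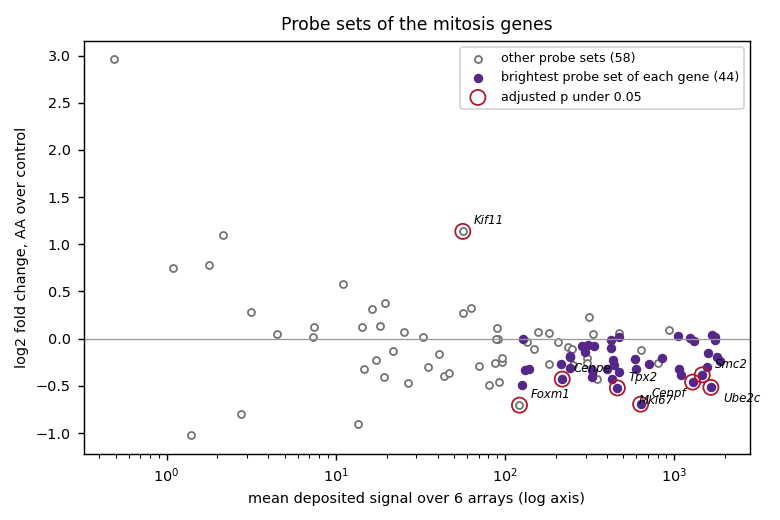
Log2 fold change (log2FC), AA over control, against the mean deposited signal (log axis) for the 44 probe sets used for a gene (purple) and the 58 others (open grey), with a red ring at an adjusted p under 0.05. The probe sets under a signal of 100 scatter widely to both sides of 0, and the ringed Kif11 probe set lies among them.

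Other genes of cell division were read in the same way. Of 63 measured mitosis genes outside the list, 6 passed as lower by limma and 0 as higher (4 lower without the block). Over all genes 3.85% were called lower and 4.07% higher. Of the genes at least as bright as the dimmest member, 7.93% were lower and 7.98% higher, and the share among the 63 was near that. The 63 were not filtered for brightness, and some were far dimmer. The log2FC was below 0 for 49 of the 63, with a median of -0.19. Wee1, the kinase that restrains CDK1, had signals of 242, 297 and 317 in AA cultures and 403, 485 and 549 in control cultures (log2FC -0.71, adjusted p = 0.00350). Arhgap11a, a GTPase activating protein for RhoA, and Zwilch, a kinetochore protein of the checkpoint, had log2FC values of -0.61 and -0.66 (adjusted p = 0.0117 and 0.0127). The core subunits and partners of the APC/C did not lean one way. Of 16, 2 were higher and 1 lower (median log2FC 0.02). Cdc26 and Cdc16 rose (log2FC values 0.64 and 0.40, adjusted p = 0.00238 and 0.0264), and Anapc1 fell (-0.46, adjusted p = 0.0191). Of 12 cohesin genes, Smc3 alone passed (-0.39, adjusted p = 0.0285), and 0 passed without the block. Of 19 DREAM, MuvB and E2F regulators, 1 was lower, the repressor E2f6 (-0.61, adjusted p = 0.0113). With 1 call each, the cohesin genes and these regulators were near the shares over all genes and over the bright ones. Of 29 DNA replication genes, 4 were lower and 0 higher (1 lower without the block), with a median log2FC of -0.28. Rrm1, the large subunit of ribonucleotide reductase, had a log2FC of -0.76 (adjusted p = 0.00459) and the helicase subunit gene Mcm6 one of -0.56 (adjusted p = 0.0131). AA replicate 1 was the lowest here too, with a median of -0.69 over the replication genes, against -0.16 and -0.06 for AA replicates 2 and 3.

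The cultures carried the RNA of OBs. Of 8 measured osteoblast markers, 3 were higher in AA cultures and 0 lower (2 higher without the block). Alpl, Ibsp and Pth1r had log2FC values of 1.52, 1.53 and 0.85 (adjusted p = 0.000464, 0.000549 and 0.00268). The others did not pass. Col1a1, Col1a2, Sp7 and Dmp1 were at 0.11, 0.04, 0.29 and 1.58 (adjusted p = 0.417, 0.804, 0.235 and 0.261), and Phex was at -0.56 (adjusted p = 0.644). Summed over the 8, the signals ran from 20749 to 27431 in AA cultures and from 16216 to 19706 in control cultures. Col1a1 and Col1a2, which did not pass, made up most of each sum. Of 6 endothelial markers, 0 passed, and Pecam1 had signals of 0.951 to 1.85 in AA cultures and 0.826 to 2.08 in control cultures. Of 4 adipocyte and 6 skeletal muscle markers, 0 passed. Of 7 macrophage markers, 1 was higher: Csf1r, with signals of 104, 74.6 and 83.6 in AA cultures and 23.9, 24.7 and 25.0 in control cultures (log2FC 1.81, adjusted p = 0.00168). Lyz2, a lysozyme gene used as a macrophage marker, had 344, 332 and 296 in AA cultures and 336, 382 and 416 in control cultures, and made up most of the summed signal of the 7. The leukocyte marker Ptprc had 0.438 to 4.52 in AA cultures and 0.328 to 3.77 in control cultures. The sums over the 7 ran from 487 to 560.3 in AA cultures and from 430 to 532 in control cultures, and their part in the results for the mitosis genes was not tested.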

How the data were processed

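Total RNA of 3 AA and 3 control cultures was read on 6 Affymetrix arrays (Mouse Genome 430 2.0). Each deposited value is a linear intensity, named MAS5 in the submitters' processing notes, which the authors scaled so that the mean without the outer 2% at each end was 150.0 on every array. Quantile normalization and GC-RMA, which the methods describe for the published analysis, are not in these values. No detection calls were used, so no level is called absent.

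The table holds 45101 probe sets, of which 64 controls were left out. The other 45037 were put on the log2 scale, quantile-normalized and fitted in R 4.3.3 with limma 3.58.1, with terms for condition and replicate number and a variance trend. The replicate term follows the paired tests of the methods. Benjamini-Hochberg adjustment ran over the 45037. In GEO's platform annotation 34945 probe sets have 1 gene, 932 several and 9160 none. Symbols looked up by Entrez identifier in RefSeq (GRCm38.p6) changed for 0. The number of arrays limits the precision. Fold changes were taken within a probe set only. The sums over marker lists and the comparisons of brightness set signals of different probe sets side by side.

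The members, role groups and gene lists were chosen with earlier results of these data known. Arrays are given in full for members that passed and for the brightest of each role group, and up to 3 genes per direction are named for other lists. Some list genes, such as Runx2, Bglap, Bglap2 and Spp1, lack a probe set of their own and were not counted. Promoters were searched for exact letters on both strands. The fit was also run on simulated arrays with independent noise and added changes of 1.5-fold or more. Such arrays do not cover the smaller changes of most members. Alternatives covered the block, normalization, a pseudocount of 50, a filter on dim probe sets, the variance trend, the methods' t-test and criterion (unadjusted p under 0.01, fold of at least 1.5), left-out replicates or arrays, and the use of a gene's probe sets.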

Additional observations from a re-analysis of the deposited data

How the results depend on the processing

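The count of members lower in AA cultures, 6, was 2 with no replicate block, 3 with a pseudocount of 50 and 1 by the methods' criterion. With all probe sets of a gene averaged it was 2, both of them genes with 1 probe set. It was 7 on the signals as deposited and 8 when only probe sets above the median signal were fitted. It was 0 with limma without the variance trend (5 at an unadjusted p under 0.05) and 0 by the methods' paired t-test after adjustment (9 unadjusted). With arrays or replicates left out it ran from 1 to 10. The count of members higher was 0 in each of these, and 1 (Kif11) where any probe set of a gene could pass, a rule chosen after seeing the data. Over all probe sets, 1124 were lower and 1219 higher. These were 655 and 788 with the pseudocount and 0 and 0 without the trend (2616 and 2587 unadjusted) or by the paired t-test (2827 and 2612 unadjusted). With arrays or replicates left out they ran from 339 to 960 lower and from 381 to 1162 higher. After median centring 1291 were lower and 842 higher, the median over all probe sets being -0.05, and the members lower were 5, with Foxm1 and Aurkb in place of Ube2c, Mki67 and Smc2.

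The replicate numbers share no stated origin. Deviations of same-numbered arrays from their group means correlated at 0.017, 0.0037 and 0.0099 over all probe sets and at 0.18, 0.025 and 0.092 above the median signal, so the numbers were not shown to pair the samples. The fit with no replicate block called 1039 probe sets lower and 1089 higher.

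Of 792 log2 fold changes of members under the alternatives, 650 kept direction and side of the threshold, 70 lost the call, 11 gained one and 61 changed sign, in 21 genes. On the signals as deposited Cdk1 was at 0.0196 and Ect2 at -0.0200. After median centring Birc5 was at -0.0366, Cenpa at -0.0212 and Ect2 at -0.0749, and with the pseudocount Cdc25c was at 0.0021. With all probe sets of a gene averaged Cdc25c was at 0.0556, Incenp at 0.0618, Ttk at 0.19, Cenpa at -0.34, Kif11 at 0.23, Kif2c at 0.11, Hmmr at 0.0437, Racgap1 at 0.93, Smc4 at 0.0017 and Ncapg at 0.0287. These averages give dim probe sets the same weight as bright ones. For Racgap1 they include a probe set with signals of 0.0197 to 1.25 and a log2FC of 2.96. For Cenpa they include one with a mean signal of 2.77 and a log2FC of -0.80. Both are too dim for a fold to be read. With arrays or replicates left out, Cdk1 ran from -0.11 to 0.11, Ccnb2 from -0.12 to 0.18, Cdc25b from -0.26 to 0.0023, Cdc25c from -0.13 to 0.19, Plk1 from -0.14 to 0.0284, Aurka from -0.24 to 0.18, Birc5 from -0.11 to 0.17, Bub3 from -0.0602 to 0.0361, Mad2l1 from -0.18 to 0.24, Pttg1 from -0.0386 to 0.0644, Cenpa from -0.0624 to 0.17, Nuf2 from -0.35 to 0.15, Kif2c from -0.27 to 0.0826 and Ect2 from -0.27 to 0.23. Cenpf ran from -0.75 to -0.63. The causes were not tested.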
